A study of Drosophila melanogaster with 2 samples.

Results

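Promoter summits of single protein-coding genes are the points of highest ChIP signal for the DNA-binding protein ATbp that lay within 500 bp of a transcription start site (TSS) of exactly 1 protein-coding gene. Of the 5921 summits in the authors' list of peaks reproducible between replicates (IDR peaks, for irreproducible discovery rate), 1382 met this rule, or 23.3% (Wilson 95% interval 22.3 to 24.4). They fell at 1314 TSSs of 1189 genes, out of 19276 TSSs and 13968 protein-coding genes annotated by Ensembl. Another 484 summits lay within 500 bp of TSSs of several protein-coding genes, 185 were near noncoding TSSs only, and 3870 were farther from any TSS. A noncoding gene also started within 500 bp of 81 of the 1382.

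ChIP-seq, which sequences the DNA bound by a protein in fixed chromatin, was done on whole Drosophila melanogaster embryos aged 0 to 14 h, males and females together. All embryos came from 1 transgenic line making ATbp with green fluorescent protein (GFP) at its C terminus, and an antibody against GFP pulled down the chromatin, sheared by sonication to 200 to 800 bp. There was 1 group of 2 libraries, labelled as biological replicates, so no treatment or genotype was compared. Signal was summed over all cell types of the embryo, and a site bound weakly in all cells cannot be told apart from one bound strongly in few. The fused protein may differ from the native one, and the labels do not say what drives the transgene. The files give peaks and the caller's signal value per peak, not reads, so the depth is unknown. The intervals below cover counting error only.

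A TSS is where RNA polymerase II begins an RNA, and the core promoter is the DNA just around it on which the general transcription factors assemble. The DNA upstream usually holds sites for sequence-specific factors, and promoters in use keep a stretch before the TSS free of nucleosomes. ATbp (AT-rich binding protein) is a zinc finger protein named for its binding to DNA rich in A and T.

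Stretches of 200 bases ending just before the TSS show the DNA between many summits and that TSS. They are read along the gene's strand, 5′ to 3′, from the RefSeq dm6 (Release 6) genome, with ACAGTG or its reverse complement CACTGT in capitals. RluA-1 (a pseudouridine synthase gene), PAN3 (a subunit of an mRNA deadenylase), RapGAP1 (a regulator of the small GTPase Rap1) and Glyp (glycogen phosphorylase) are shown because each has a strong upstream summit and the word CACTGT between it and the TSS. For PAN3 and RapGAP1 this is a later TSS of the gene, number 5 of 6 and 5 of 5, with the summit in an intron of the gene. Hsp27, a small heat shock protein gene, is shown as a strong upstream summit without the word. Ugalt, which encodes a Golgi transporter of UDP-galactose, is shown as the strongest of the 1382 summits, and RpL23A as a ribosomal protein gene.
RluA-1, chr2L:10474350-10474549, minus strand: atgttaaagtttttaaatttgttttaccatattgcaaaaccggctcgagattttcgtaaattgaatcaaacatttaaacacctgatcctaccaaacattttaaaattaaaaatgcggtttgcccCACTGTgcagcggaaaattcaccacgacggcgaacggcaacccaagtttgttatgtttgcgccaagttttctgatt
PAN3, chr3L:3081368-3081567, plus strand: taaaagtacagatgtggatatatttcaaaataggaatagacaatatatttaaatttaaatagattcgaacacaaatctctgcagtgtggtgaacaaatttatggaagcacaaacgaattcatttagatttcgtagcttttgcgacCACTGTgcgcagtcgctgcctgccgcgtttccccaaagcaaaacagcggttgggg
RapGAP1, chr2L:7530575-7530774, minus strand: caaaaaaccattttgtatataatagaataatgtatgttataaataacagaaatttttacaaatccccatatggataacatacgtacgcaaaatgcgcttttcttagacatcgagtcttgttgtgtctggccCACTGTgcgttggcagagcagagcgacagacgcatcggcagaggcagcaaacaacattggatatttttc
Glyp, chr2L:2130613-2130812, plus strand: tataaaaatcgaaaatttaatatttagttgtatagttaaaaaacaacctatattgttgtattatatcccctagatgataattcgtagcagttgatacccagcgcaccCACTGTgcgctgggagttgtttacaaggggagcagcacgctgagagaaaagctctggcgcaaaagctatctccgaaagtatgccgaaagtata
Hsp27, chr3L:9383863-9384062, plus strand: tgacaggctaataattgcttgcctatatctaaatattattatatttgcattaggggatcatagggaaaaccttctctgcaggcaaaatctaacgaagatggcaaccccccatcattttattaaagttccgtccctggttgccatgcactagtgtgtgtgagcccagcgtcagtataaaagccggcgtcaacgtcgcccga
Ugalt, chrX:2703853-2704052, minus strand: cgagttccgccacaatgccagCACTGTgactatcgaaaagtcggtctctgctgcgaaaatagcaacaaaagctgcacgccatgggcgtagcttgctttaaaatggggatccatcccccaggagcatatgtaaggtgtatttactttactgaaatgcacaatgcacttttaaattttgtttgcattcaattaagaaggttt
RpL23A, chr3L:1668655-1668854, minus strand: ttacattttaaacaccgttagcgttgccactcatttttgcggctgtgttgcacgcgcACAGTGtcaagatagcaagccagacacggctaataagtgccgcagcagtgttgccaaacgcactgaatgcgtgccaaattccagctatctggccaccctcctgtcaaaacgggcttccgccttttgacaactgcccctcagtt

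In the RluA-1 sequence the far 100 bases held 71% A+T and the 100 bases next to the TSS 55%, with the summit at -180 from the TSS. The same contrast was 74% against 48% for PAN3 (summit at -140), 74% against 49% for RapGAP1 (-131) and 75% against 47% for Glyp (-217, beyond the bases shown). Hsp27 went from 65% to 46% with its summit at -145. The order was the other way in Ugalt, at 49% and then 65%, where the summit was close to the TSS at -27. Some strong summits farther upstream that are not shown, elav and CG3009 among them, also had less A+T in the far 100 bases. RpL23A held 51% and 46%, with its summit at -73.

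Summits lay mostly upstream of the nearest TSS of the gene they were assigned to. Of the 1382, 1034 were upstream (74.8%, 72.5 to 77.0), 345 downstream (24.96%, 22.8 to 27.3) and 3 on the first transcribed base. Upstream of a TSS is not always outside the gene. Of the upstream summits, 361 lay in an intron and 54 in an untranslated exon of their own gene, before one of its later TSSs. The median position was -145.5 bp, with quartiles at -270 and 0. Stretches that reach in to 100 or 200 bp from the TSS leave out that last base. The stretch from 300 to 100 bp upstream held 541 summits (39.2%, 36.6 to 41.8), and the mirror stretch downstream held 104 (7.53%, 6.25 to 9.04). Within 50 bp of the TSS, a zone about as wide as 4 bins of 25 bp, lay 176 (12.7%, 11.1 to 14.6), at 38 to 51 per bin. The rule set the 500 bp limit and not the side. Yet leaving out summits near several protein-coding genes and measuring to the nearest TSS can shift the shares of the sides. With only the most upstream TSS of each gene, 29.9% of 931 summits were downstream.

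**Figure D1:**
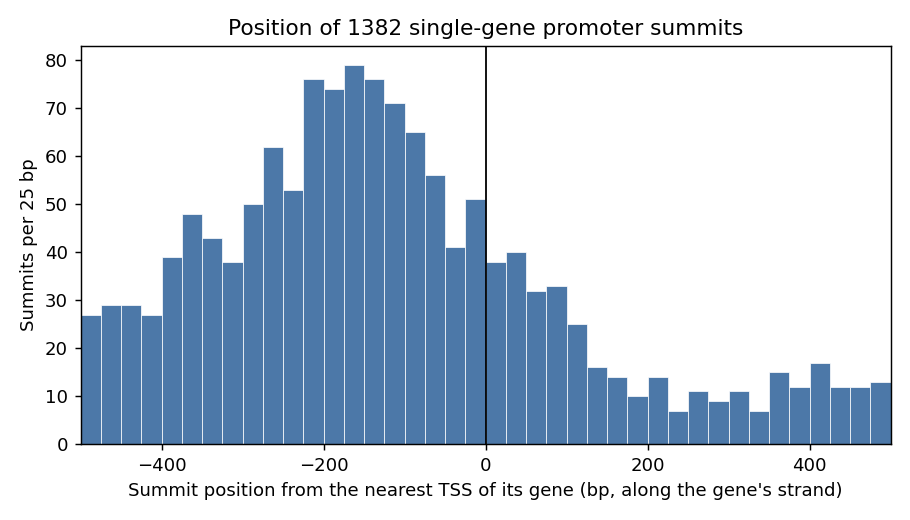
Number of the 1382 summits per 25 bp (y axis) against position from the nearest TSS of the gene (x axis, bp, negative upstream). The stretch from 300 to 100 bp upstream held 541 summits against 104 in its mirror downstream, and the equally wide one from 250 to 51 bp upstream held 550.

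Downstream shares were 20.04% for genes with 1 annotated TSS (96 of 479 summits), 24.3% at the first TSS of any gene (199 of 819) and 25.9% at later TSSs (146 of 563). Genes with 1 TSS are part of the first-TSS group, so those shares are not separate. The intervals of the first and last of these, 16.7 to 23.9 and 22.5 to 29.7, overlap only at their ends, and this does not show that the shares are equal. Replicate summits matched within 100 bp of an IDR summit were upstream for 74.2% of 1334 in replicate 1 and 76.3% of 1284 in replicate 2. Their medians were -144.5 and -148 bp. The match allowed a shift of at most 100 bp, so these like positions were largely set by it. Where both replicates had a summit within 100 bp of the IDR summit, their 2 summits were on the same side of the TSS for 1197 of 1238 (96.7%, 95.5 to 97.6). These lists went into the IDR list, so this is a description and not separate support. Downstream summits made up 39.6% of the 4957 that met the rule in the 30000 relaxed peaks of the pooled replicates, where weak peaks are kept.

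By annotation 510 summits were intergenic, 484 in an intron of their own gene (upstream of one of its later TSSs or downstream of one) and 272 in an untranslated exon of it. Coding exons held few, 7 of the own gene and 3 of another. Of the 345 downstream summits, 215 lay in an untranslated exon (62.3%, 57.1 to 67.3) and 123 in an intron. By chromosome, 330 were on 3R, 273 on 3L, 261 on 2R, 260 on X, 251 on 2L, 7 on chromosome 4 and 0 on Y.

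Stronger summits lay upstream more often. Of the strongest 50, 46 were upstream (92.0%, 81.2 to 96.8), 35 were 300 to 100 bp upstream and 2 were within 50 bp of the TSS. Of the weakest 500, 336 were upstream (67.2%, 63.0 to 71.2), 139 were in that stretch (27.8%, 24.05 to 31.9) and 94 were within 50 bp (18.8%, 15.6 to 22.5). The median signal of all 1382 was 237 (quartiles 166 and 419), in the authors' units, which are compared here only within their list. It was 303 from 200 to 100 bp upstream and 184 within 50 bp of the TSS. The quartiles of these zones, 185 to 536 and 151 to 308, overlap widely. Median signal was 253 at summits shared by several protein-coding genes, 239 at noncoding TSSs and 214 farther away, and none of these differences was tested.

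**Figure D2:**
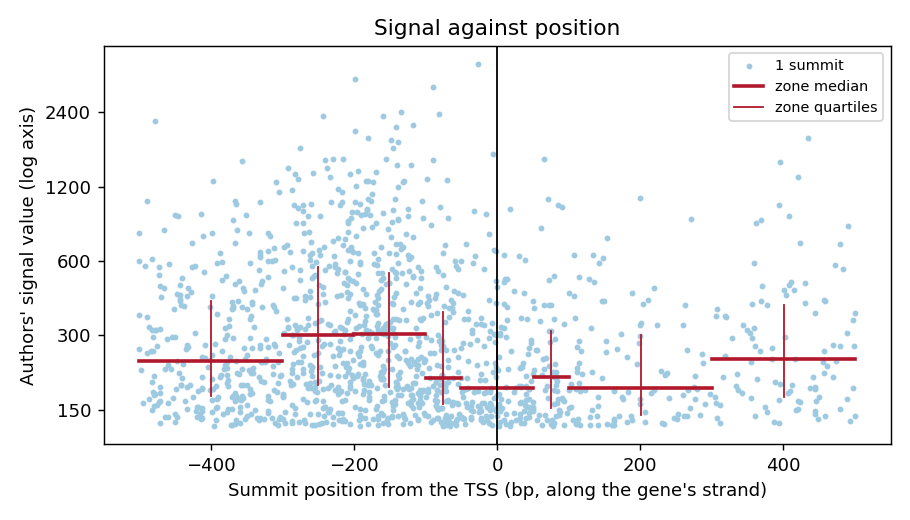
Authors' signal value (y axis, log scale) against position from the TSS (x axis, bp) for each summit, with the median and quartiles of 8 position zones in red. The zone medians were highest at 303 and 300 between 300 and 100 bp upstream and lowest at 184 within 50 bp of the TSS and from 100 to 300 bp downstream.

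Ugalt had the strongest of the 1382 summits at 3766.8 units, 27 bp upstream of its TSS, with 1705.2 in replicate 1 (rank 4 of 30000) and 2064.3 in replicate 2 (rank 1). It was followed by px (plexus, which acts in wing vein patterning) at 3270.3 and -199 bp, with 1623.2 and 1659.1 in the replicates. CG14100 had 3045.9 at -90 bp, with 1341.1 and 1717.4. All 3 stood within the first 9 ranks of both replicates. CG18549 (2417.2, -134 bp), PNPase (2370.0, -81 bp), which encodes polynucleotide phosphorylase, an enzyme of RNA breakdown, CG1888 (2318.7, -243 bp) and Tina-1 (2310.3, -160 bp) came next. ph-p, a Polycomb group gene, had 2212.7 at -478 bp, Fkbp14, a prolyl isomerase of the endoplasmic reticulum, 2129.5 at -117 bp, and mRpL41, a mitochondrial ribosomal protein gene, 2092.8 at -142 bp. CG31145 (2023.3, -199 bp) and bchs (blue cheese, an autophagy adaptor; 1894.1, +435 bp) closed the 12 strongest. Of these 12, bchs alone was downstream, and it was the one whose rank differed most between replicates, at 12 in replicate 1 and 81 in replicate 2.

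The IDR list was selected from the replicates' lists for reproducibility, so how often its summits recur there was largely set by that choice. Relaxed peaks within 100 bp were in both for 1238 of 1382 (89.6%, 87.9 to 91.1), in replicate 1 alone for 96, in replicate 2 alone for 46 and in neither for 2. The share was 93.5% from 300 to 100 bp upstream (506 of 541, 91.1 to 95.3), 86.4% within 50 bp of the TSS (152 of 176, 80.5 to 90.7) and 86.0% from 51 bp downstream on (227 of 264, 81.3 to 89.7). Downstream summits had median ranks of 2729.5 in replicate 1 and 3487 in replicate 2, while upstream ones from 300 to 100 bp had 2105 and 1925, so the zones stood farther apart in replicate 2. The share in both was 85.1% at summits shared by several protein-coding genes, 95.7% at noncoding TSSs and 94.4% farther away. BEAF-32, which encodes a boundary element protein, is an example of a weak one, at rank 4654 in replicate 1 and 20520 in replicate 2. No cause of the gap between replicates was tested.

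**Figure D3:**
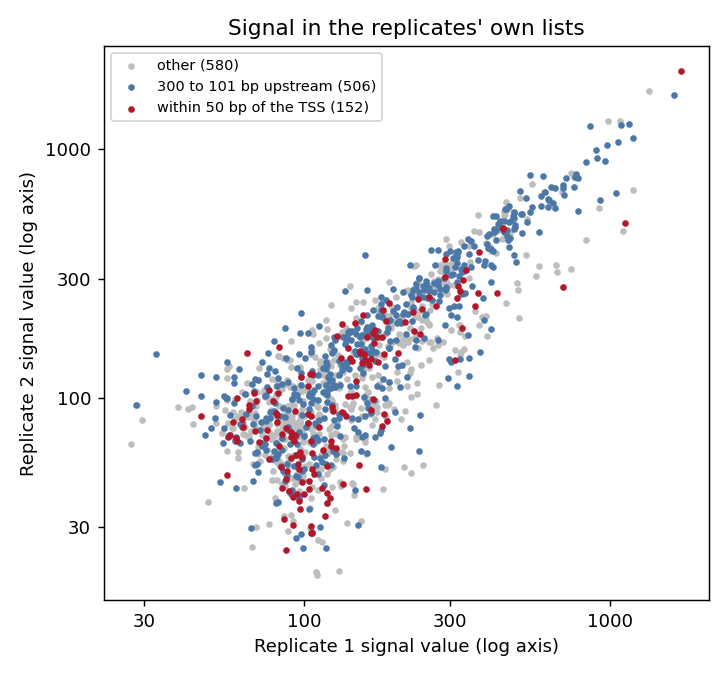
Signal value in replicate 2 (y axis) against replicate 1 (x axis), both log scales, for the 1238 summits with a relaxed peak in each, coloured by position. The strongest points, Ugalt and px among them, lie high in both replicates, and the spread widens towards low values.

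Genes with several TSSs held more of the summits, which the rule favours, since each TSS adds a window. Genes with 1 annotated TSS had a summit in 4.52% of cases (464 of 10269), with 2 in 13.3% (342 of 2566), with 3 in 27.6% (191 of 693) and with 4 or more in 43.6% (192 of 440). Of the genes with a summit 61.0% had several TSSs against 26.5% of all protein-coding genes, and their median length was 6506 bp against 2164.5 bp. A single summit was found at 1027 genes and 2 at 142, and 108 genes had summits at separate TSSs.

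Ptpmeg2, a tyrosine phosphatase gene with 6 TSSs, had the most summits, 6. The strongest 3 lay at -198, -184 and -197 bp of 3 different TSSs, with signals of 1041.6, 933.4 and 760.0. In replicate 1 they had 510.3, 461.1 and 390.4, and in replicate 2 548.2, 475.1 and 354.4, the same order in both. Rtnl1, a reticulon that shapes the endoplasmic reticulum, had 5 summits, all upstream, from -169 to -396 bp, the strongest at -282 bp with 1354.8. dnc (dunce), the cAMP phosphodiesterase known from learning mutants, had 5, of which the strongest was at -271 bp with 1007.3 and 1 was downstream, at +141 bp. At ph-p other summits stood at +420 bp with 1308.2 and at +100 bp with 180.8.

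Upstream summits sat in DNA with more A and T than summits at the TSS. The summits with 50 bp to either side held 63.2% A+T ± 10.2 (SD, 1382 windows), against 66.7% ± 9.95 at summits shared by several protein-coding genes, 64.5% ± 9.47 at noncoding TSSs and 65.0% ± 8.70 farther away. By position the mean was 67.4% ± 8.52 from 300 to 200 bp upstream (241 windows), 65.6% ± 10.5 from 200 to 100 (300), 59.8% ± 10.4 from 100 to 51 (121) and 54.1% ± 8.23 within 50 bp of the TSS (176). Downstream it was 59.7% ± 8.55 from 100 to 300 bp (104).

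All protein-coding TSSs fell in A+T on approaching the start, and the 1314 TSSs with a summit fell lower and sooner. From 300 to 100 bp upstream both had about the same mean, 62.5% against 62.3%, the TSSs with a summit being higher in the far part of it and lower in the near part. In the last 100 bp the TSSs with a summit held 53.0% and all TSSs 57.9%. From 100 to 300 bp downstream the order was reversed, at 55.6% against 53.9%. TSSs with a summit 300 to 100 bp upstream had 64.1% in that stretch and 51.8% in the last 100 bp. The promoters of several TSSs of 1 gene can overlap, so these are not independent stretches.

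**Figure D4:**
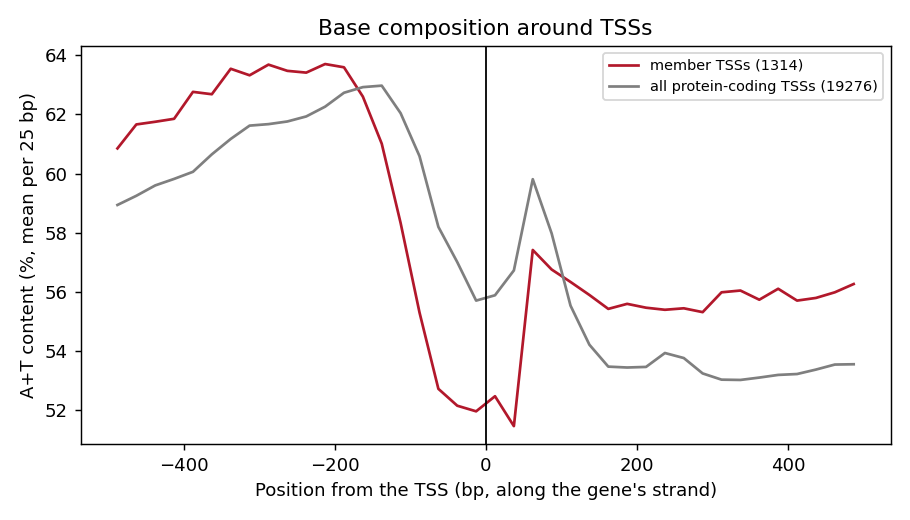
Mean A+T content per 25 bp (y axis, %) against position from the TSS (x axis, bp) for the 1314 TSSs with a summit (red) and all 19276 protein-coding TSSs (grey). The red line is above the grey one far upstream, crosses below it at about 175 bp upstream, is lower through the last 100 bp (53.0% against 57.9%) and is again above it past 100 bp downstream.

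Known promoter motifs were counted in the 300 bases from 250 bp before to 49 bp after each TSS, on both strands, beside all 19276 coding promoters of that length. GAGAG, the core of the site of GAGA factor, was in 52.2% of promoters with a summit (686 of 1314, 49.5 to 54.9) and 33.1% of all. The DNA replication-related element, TATCGATA, was in 4.49% (59, 3.50 to 5.75) against 7.98%. The TATA box word TATAAA was in 37.1% against 42.2%, and the initiator word TCAGT in 55.5% against 52.04%. ACAGTG was in 20.7% (272, 18.6 to 23.0) against 14.2%, and CAAACA in 33.6% against 28.3%. The next words differed by less in percentage points. They were the E-box CANNTG (76.0% against 77.8%), the Ohler 7 word CATCNCTA (4.64% against 5.65%), AGGNGGCGC for CTCF (0.989% against 0.643%) and CAGGTAG for Zelda (1.29% against 1.69%). By name only, Ohler 1 was in 3.43% against 3.80% and Ohler 6 in 0.989% against 1.93%, a small difference in points but a large one as a ratio (intervals 0.579 to 1.69 and 1.74 to 2.13). None of these was tested, and a match is only a run of letters.

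Promoters with a summit 300 to 100 bp upstream and those with one within 50 bp differed in several of these shares. GAGAG was in 55.1% of the first (298 of 541, 50.9 to 59.2) and 36.9% of the second (65 of 176, 30.2 to 44.3). TATCGATA was in 1.11% of the first (6, 0.509 to 2.40) and 11.4% of the second (20, 7.48 to 16.9). TCAGT was in 62.1% and 47.7%. The intervals of each of these pairs do not overlap.

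The word CACTGT had a preferred place and direction at these promoters. Read along the gene, it began 100 to 51 bp before the TSS at 71 of 1314 TSSs with a summit (5.40%, 4.31 to 6.76) and at 319 of all 19276 (1.65%, 1.48 to 1.84). Its reverse complement ACAGTG was there at 1.22% and 1.27%. At TSSs with a summit 300 to 100 bp upstream the share of CACTGT was 8.32% (45 of 541, 6.27 to 11.0), and at the other TSSs with a summit 3.36% (26 of 773, 2.31 to 4.88). Seen from the summit, CACTGT along the gene's strand began 51 to 100 bp after it at 70 (5.07%) and ACAGTG at 22, while 100 to 51 bp before it ACAGTG began at 58 (4.20%) and CACTGT at 20. The word was picked from earlier results on these peaks and its place was viewed before it was counted, so the shares only describe it.

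At TSSs with a summit the letters around the word were also unequal. Of 72 matches, 63.9% had C just before the word, 43.1% G just after it and 52.8% C as the next base. At coding TSSs to which no single-gene summit was assigned the shares were 34.9%, 26.6% and 36.5% of 252 matches. Such TSSs can still have a summit within 500 bp, for example one shared by several protein-coding genes. The letters C before the word and GC after it stand in the sequences of RluA-1, PAN3, RapGAP1 and Glyp above. The longer CCACTGTGC stood 100 to 51 bp before 21 of the 541 TSSs with a summit 300 to 100 bp upstream (3.88%, 2.55 to 5.86). It stood there at 2 of the 773 others with a summit (0.259%) and 29 of the 17962 coding TSSs without an assigned one (0.161%, 0.112 to 0.232). Among the TSSs of the 200 strongest summits it was at 11 (5.50%, 3.10 to 9.58). It was written from the letters of these same matches, and so its count is no separate result. Genes with CACTGT there included Tina-1 (word at -77), RluA-1 (-76), PAN3 (-55), Glyp (-93), spi (-89) and Stat92E (-81), the last with its summit on the other side of the TSS, at +362 bp.

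Summits at genes of cytosolic ribosomal proteins, taken by their name, lay at the TSS. A single-gene summit was at 34 of 93 (36.6%, 27.5 to 46.7), where 8.51% of all protein-coding genes had one, and a promoter summit of any kind at 62, where 14.9% of all had one. Taking each gene's strongest summit, 30 of 34 were within 50 bp of the TSS and the median was -10.5 bp, against 154 of 1189 and -145 bp for all genes. Over all their summits 31 of 35 were within 50 bp (88.6%, 74.0 to 95.5), and of the other 1347 summits 145 were (10.8%, 9.22 to 12.5). They made up 17.6% of the 176 summits in that zone and 4 of the 1206 outside it. The summits near the TSS at ribosomal protein genes had a median signal of 312 against 177 at other genes there, while their A+T content was alike, at 53.0% ± 5.86 (31) and 54.4% ± 8.64 (145). Some ribosomal protein genes have paralogs, and how reads were placed between copies is unknown.

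RpS4, of the small subunit, led with a signal of 769.5 at -11 bp, with 373.3 in replicate 1 and 384.5 in replicate 2. RpL23A, of the large subunit, had 696.1 at -73 bp, with 297.9 and 406.5. RpS10b (667.1, -4 bp), RpL24 (659.1, -1 bp) and RpL30 (633.8, +9 bp) followed, and RpL17 (468.7) had its summit on the first transcribed base. The exceptions in position were RpS23, with summits at -423 and +15 bp, RpL35 at -108 bp, RpS9 at +82 bp and RpL23A. Translation factor genes had 8 of 52 (15.4%, 8.01 to 27.5), an interval that takes in the 8.51% of all protein-coding genes. By the strongest summit of each, 4 of the 8 were within 50 bp, against 154 of 1189 for all genes with a summit. The 4 were eEF1gamma at -16 bp (933.2), eEF2 at +4, eEF1alpha1 at -35 and eEF5 at +3. eIF6, which keeps ribosomal subunits apart, had the strongest, 1284.0 at -98 bp, with 555.7 and 721.9 in the replicates.

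Mitochondrial ribosomal protein genes had few single-gene summits, but not few promoter summits of any kind. mRpL41, among the 12 strongest of the 1382, was the only one of 73 mitochondrial ribosomal protein genes (1.37%, 0.242 to 7.36, against 8.51% of all protein-coding genes). A promoter summit of any kind was at 12 of the 73 (16.4%, against 14.9% of all protein-coding genes). Oxidative phosphorylation genes had 0 of 90 (Wilson upper limit 4.09%) and 4 with any promoter summit. The transcription machinery had 1 of 64 (TfIIA-S, 200.6 at -51 bp) and the ubiquitin and proteasome list 1 of 63 (Ubc6, 138.5 at -49 bp). For these lists the Wilson upper limits were 8.33% and 8.46%, just under the 8.51% of all genes. With any promoter summit these lists had 7 of 64 (10.9%) and 3 of 63 (4.76%).

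Several lists of signalling genes had summits at more than the 8.51% of all genes. The lists were made with earlier results of these peaks known, many of their genes are long with several TSSs, and no test was made. The Notch list had 8 of 30 genes (26.7%, 14.2 to 44.4), with a median at -233 bp, 0 within 50 bp and 70.2% A+T ± 3.61. For all genes with a summit these values were -145 bp, 154 of 1189 and 63.45% ± 10.05. With so few genes, 0 within 50 bp does not set this list apart. gro (Groucho, a co-repressor) had 884.5 at -139 bp, with 418.0 in replicate 1 and 465.6 in replicate 2, and numb (an inhibitor of Notch in asymmetric division) 717.8 at -260 bp, with 371.7 and 357.6. The target genes E(spl)m3-HLH and E(spl)m7-HLH, which encode repressors, had 568.2 at -426 bp and 548.3 at -298 bp. The receptor gene N had 182.5 at -346 bp, the co-activator gene mam 3 summits of 283.6, 237.0 and 162.0, and neur and mib1, both ubiquitin ligases acting on the ligands, 258.6 and 177.1.

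In the EGF receptor and Ras list 9 of 34 genes had a summit (26.5%, 14.6 to 43.1). The median was at -235 bp, against -145 bp for all genes with a summit. The secreted inhibitor gene aos had 681.5 at -298 bp, with 306.4 and 366.2 in the replicates. The ligand gene spi had 4 summits, the strongest 542.5 at -212 bp, with 157.8 in replicate 1 (rank 2045) and 375.8 in replicate 2 (rank 362), a gap of ranks larger than at aos (627 and 378). The gene htl, which is also on the mesoderm and muscle list, had 267.4, with no relaxed peak within 100 bp in replicate 1. The kinase gene Raf had 146.3, and the ETS factor genes aop and pnt 192.0 and 144.7. The Wingless list had 7 of 28 (25%, 12.7 to 43.4). Its kinase genes led, gish with 1557.9 at -155 bp (783.9 and 762.8 in the replicates) and sgg, the fly GSK3, with 1263.2 at -183 bp (626.6 and 629.4). The ligand gene Wnt6 had 184.7, the receptor genes fz and arr 184.1 and 285.0, and the pathway inhibitors nkd and Apc 415.3 and 333.8.

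The Hippo and polarity list had 9 of 32 (28.1%, 15.6 to 45.4), against 8.51% of all protein-coding genes. Its median was at +50 bp with 4 of the 9 upstream, and in the Wingless list 4 of the 7 were upstream. For all 1189 genes with a summit, by the strongest of each, the median was -145 bp, 898 were upstream and 154 within 50 bp. stan, a planar polarity cadherin, had 1556.8 at +66 bp, with 1098.8 in replicate 1 (rank 17) and 467.5 in replicate 2 (rank 228). sdt followed with 610.4 at -483 bp and ex with 596.9 at -191 bp. Axon guidance and neural adhesion genes had 13 of 40 (32.5%, 20.1 to 48.0). By the strongest summit of each, 11 were upstream and 5 within 50 bp, beside the 898 and 154 of 1189 for all genes. unc-5, a netrin receptor gene, led with 500 at -163 bp (226.5 and 271.4), and Ten-a, a teneurin, had 415.3 at -12 bp (239.1 and 180.4). The guidance receptors PlexA and robo2 had 326.8 and 177.2, and the ligand gene NetA 131.8. Hedgehog, JAK-STAT and Dpp lists had 1 of 15 (Pka-C1), 1 of 11 (Stat92E, 852.9 at +362 bp) and 3 of 21, led by shn (449.2, -210 bp) and wit (152.9, -42 bp, without a relaxed peak in replicate 2).

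Heat shock genes had 7 of 23 (30.4%, 15.6 to 50.9), against 8.51% of all protein-coding genes. Of the 7, by the strongest summit of each, 6 were upstream and 0 within 50 bp. For all 1189 genes with a summit these counts were 898 and 154, so the positions do not set this short list apart. Hsp27 had 1715.0 at -145 bp, with 834.9 in replicate 1 and 885.9 in replicate 2, and Hsp83, the fly Hsp90, 1051.5 at -105 bp, with 585.2 and 464.3. Hsp26 had 519.1 at -117 bp. The list holds near-identical copies of Hsp70, on which the placing of reads is unknown, and 0 of these was among the 7. Splicing genes had 9 of 36 (25%, 13.8 to 41.1), led by mbl (554.4, -222 bp) and shep (513.0, -208 bp).

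Of the transcription factor lists, nuclear receptors had 6 of 21 (28.6%, 13.8 to 50), led by Hnf4 (482.5, -330 bp) and Eip75B (445.5, +37 bp), and the ecdysone list, which shares Eip75B and others with it, 7 of 23 (30.4%). Homeobox genes had 8 of 84 (9.52%, 4.91 to 17.7), near the 8.51% of all genes, and all 8 were upstream. Of all 1189 genes with a summit 898 had the strongest one upstream, so this does not set the short list apart. tin, the heart regulator, had 600.9 at -205 bp (335.1 and 264.8 in the replicates), NK7.1 521.8 at -379 bp, and bcd, the anterior determinant, 233.9 at -188 bp. Neural fate genes had 6 of 33, led by elav (1286.0, -278 bp, 613.0 and 672.0 in the replicates) and lola (271.4, -475 bp), mesoderm and muscle genes 4 of 33, led by tin and htl, and cell cycle genes 6 of 43, led by Dp (552.2, -241 bp) and pbl (497.0, -361 bp). The dosage compensation list had 1 of 12, Sxl, at 436.4 and +404 bp.

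Polycomb group genes had 4 of 21 (19.0%, 7.67 to 40.0), against 8.51% of all protein-coding genes. Of these, ph-p, ph-d (213.5, +78 bp) and Psc had more than 1 summit each. The 200 bases before the TSSs of the strongest summits of ph-p and ph-d are near-identical. How reads were placed between these 2 genes is unknown. The Trithorax and remodeller list had 1 of 26, kis (187.0, -393 bp), and insulator genes 2 of 18, Trl, the gene of GAGA factor (494.0, +136 bp), and BEAF-32 (152.5, -24 bp). A promoter summit of any kind was at 5 of 21 Polycomb (23.8%), 4 of 26 Trithorax (15.4%) and 5 of 18 insulator genes (27.8%), against 14.9% of all. Chemoreceptor genes had 0 of 179 (Wilson upper limit 2.10%). Cuticle genes had 2 of 123, Cpr65Av (273.6, -408 bp) and Cpr (180.8, -84 bp), the second of which encodes cytochrome P450 reductase and was taken in by the name pattern.

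**Figure D5:**
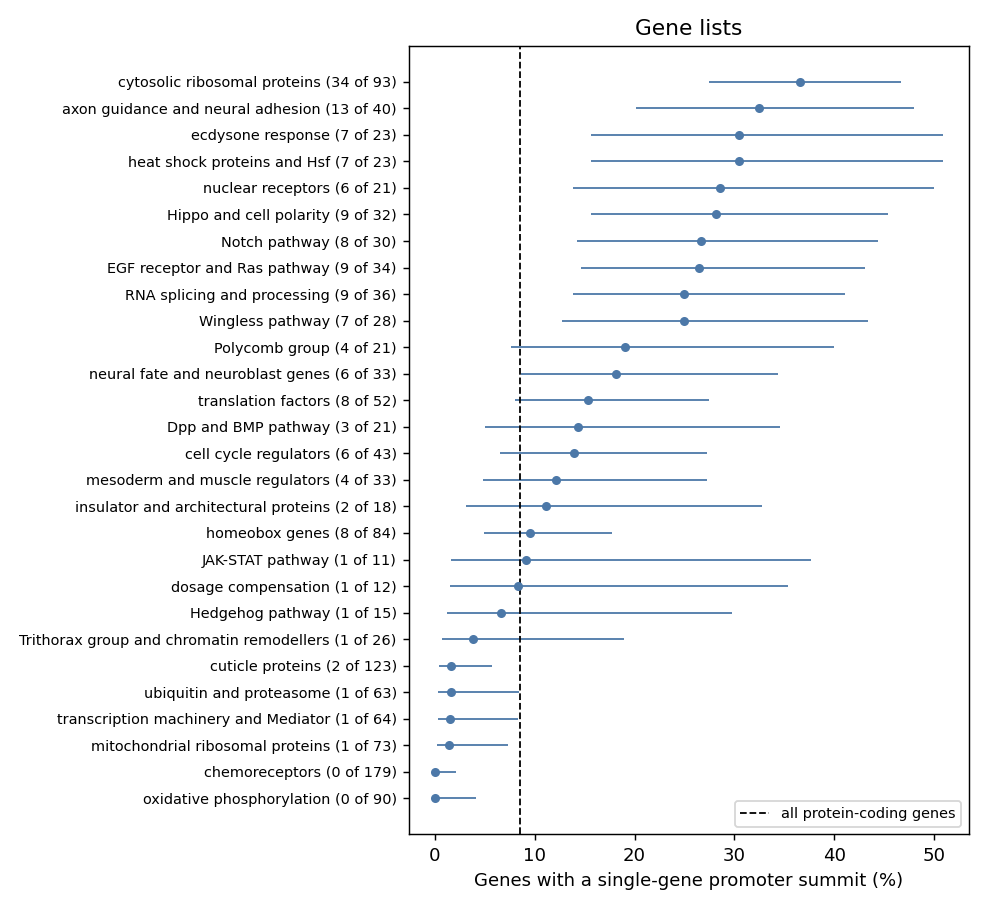
Share of each list's genes with a single-gene promoter summit (x axis, %, points with Wilson 95% intervals), with the count in brackets and the share of all protein-coding genes, 8.51%, as a dashed line. Cytosolic ribosomal protein genes are at the top with 34 of 93, and chemoreceptor and oxidative phosphorylation genes at 0.

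At the 500 bp limit itself the strongest summits just inside were at loco (-500 bp, 780.9), RapGAP1 (-500 bp of another of its TSSs, 599.9) and Eip63F-1 (+500 bp, 368.4). Just outside stood Pino (-501 bp, 215.9), CG46385 (+501 bp, 204.6) and puc (+505 bp, 131.8). With a limit of 250 bp 22.5% of 1037 summits were within 50 bp of the TSS, and with 1000 bp 7.79% of 1772, since the limit sets both the number of summits counted and which ones have a second gene in reach.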

How the data were processed

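The deposited files hold peaks with the authors' signal value per peak and its summit. Per the deposited README, relaxed lists of 30000 peaks were made from each replicate and from the pooled replicates, with a control, as input for IDR, and the IDR list of 5921 peaks was made from these, all on dm6. The aligner, caller, IDR threshold and scale of the signal were not given in the sources used here, and 4 lists on dm3 were not used. Summits were placed against Ensembl release 115 (annotation 6.54), and distances were signed along the gene's strand to the nearest TSS. Sequence was read from the RefSeq Release 6 genome. Python 3.11.15, NumPy 2.4.6, pandas 2.3.3, SciPy 1.17.1 and Matplotlib 3.10.9 were used, and the assignment was checked on planted summits. With 1 group, no test was made. Shares carry Wilson 95% intervals. Genes are named for the 12 strongest summits, the 3 genes with most summits, the 2 strongest genes of each of 28 lists and 3 on either side of the limit. Others in the lists were named after their values were seen. Of the list symbols 13, that of Delta among them, matched no gene and were left out. The rule and the lists were chosen with earlier results of these data known. Alternatives changed the limit, the TSS set, the peak list, the windows and the replicates.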

Additional observations from a re-analysis of the deposited data

How the results depend on the processing

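No paired analysis was possible because there is 1 group and no result comes from a test. The 12 alternatives gave 55 values, of which 22 stayed within the 95% interval of the reported value (for the number of genes, within 1.5 times of it) and 33 moved. The share of IDR summits moved from 23.3% to 17.5% with a limit of 250 bp, 29.9% with 1000 bp, 22.0% without summits near noncoding TSSs, 15.7% with the most upstream TSS only, 25.3% in the stronger IDR peaks and 16.5% in the pooled relaxed list, and was 22.1% to 25.2% with either replicate left out. The downstream share moved from 24.96% to 32.6% with 1000 bp, 29.9% with the most upstream TSS, 20% in the stronger peaks and 39.6% in the pooled list, and was 21.6% to 29.2% with a replicate left out. The share within 50 bp of the TSS moved from 12.7% to 22.5% with 250 bp, 7.79% with 1000 bp, 9.47% in the stronger peaks and 16.3% in the pooled list, and was 10.7% to 13.9% with a replicate left out. Median signal was 400.5 in the stronger peaks and 76.0 in the pooled list, by their construction. The share found in both replicates was 94.5% in the stronger peaks, 77.0% with a match of 50 bp and 94.9% with 200 bp. Mean A+T moved from 63.2% to 61.9% with 250 bp, 63.7% with 1000 bp, 65.2% in the stronger peaks, 58.5% in the pooled list and 62.0% with 100 bp to either side of the summit, and was 61.6% to 64.0% with a replicate left out. Genes with a summit numbered 683 in the stronger peaks and 3342 in the pooled list, and 1128 to 1281 with a replicate left out. A replicate was left out by taking the 5921 strongest relaxed peaks of the other. Upstream summits outnumbered downstream ones in every alternative run. Other causes of these moves were not tested. No read counts were given, so depth limits how weak a summit could be found by an unknown amount.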
